A study of Mus musculus with 16 samples.

Results

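The mitotic kinesins are motor proteins that move along or shorten microtubules while a cell divides. The transcripts of 10 of them were followed here in healing flexor tendon: Kif11, Kif15, Kif22, Kif18a, Kif18b, Kif2c, Kif20a, Kif23, Kif14 and Kif20b. They were chosen by gene symbol, and all 10 were found among the 49568 symbols of the count table.

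The 16 RNA-seq libraries came from male mice aged 9 to 11 weeks of the strains C57BL/6J (C57) and MRL/MpJ (MRL), the latter known for improved healing. In the injured groups the deep digital flexor tendon of the third digit of the hind paw had been cut across about 50% of its width and was taken at 7 days post injury (dpi), and the other groups were uninjured. Each of the 4 groups (C57 uninjured, C57 7 dpi, MRL uninjured, MRL 7 dpi) held 4 libraries, each made from a single tendon. Sheath and peritendinous tissue stayed on the samples, so they hold cells other than tenocytes.

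Kinesins hydrolyse ATP to walk along microtubules or to remove subunits from their ends. Mitotic members build the bipolar spindle, bring chromosomes to the cell equator and carry the cleavage machinery to the midzone, and their transcripts accumulate in G2 and M phase. Adult tendon has few dividing cells, and a laceration brings in or activates cells that divide. Levels are given as CPM, the counts of a gene relative to the library total, which was scaled by the trimmed mean of M values.

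Many genes transcribed in G2 and M phase carry a cell cycle genes homology region (CHR) near their start, often with CCAAT boxes, the motif bound by NF-Y. The starts of 7 kinesin genes are printed to show where the members share these motifs and where they do not. Each runs 5′ to 3′ on the strand of the gene from 60 bases before to 20 bases from the RefSeq start (assembly GRCm38.p6), with exact matches of TTTGAA or CCAAT on either strand in capitals (TTCAAA and ATTGG are the same motifs on the other strand).
Kif11: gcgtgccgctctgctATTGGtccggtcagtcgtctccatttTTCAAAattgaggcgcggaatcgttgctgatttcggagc
Kif15: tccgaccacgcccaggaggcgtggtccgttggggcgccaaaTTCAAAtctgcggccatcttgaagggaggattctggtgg
Kif22: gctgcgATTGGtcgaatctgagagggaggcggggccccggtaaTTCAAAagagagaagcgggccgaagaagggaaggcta
Kif18a: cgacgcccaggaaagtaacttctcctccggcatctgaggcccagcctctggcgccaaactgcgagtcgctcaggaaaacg
Kif18b: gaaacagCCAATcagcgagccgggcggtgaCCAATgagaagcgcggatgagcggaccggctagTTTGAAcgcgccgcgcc
Kif23: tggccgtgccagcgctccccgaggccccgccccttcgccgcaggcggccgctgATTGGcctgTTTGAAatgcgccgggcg
Kif20b: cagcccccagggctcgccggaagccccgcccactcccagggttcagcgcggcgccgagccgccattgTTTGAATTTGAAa

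These windows lie at chr19:37376322-37376401 (plus strand, Kif11), chr9:122951021-122951100 (plus, Kif15), chr7:127042401-127042480 (minus, Kif22), chr2:109280678-109280757 (plus, Kif18a), chr11:102925105-102925184 (minus, Kif18b), chr9:61946780-61946859 (minus, Kif23) and chr19:34922298-34922377 (plus, Kif20b). The full promoter windows, 250 bases before to 50 after the start, were found for 9 of the 10 genes, all but Kif20a. Of these 9, 8 held TTTGAA on either strand, against 17.9% of 32851 RefSeq promoter windows of the same length. The exception was Kif18a, in whose window neither motif was found. CCAAT was present in 5 of the 9 windows (all windows, 37.4%) and both motifs together in the same 5, Kif11, Kif14, Kif18b, Kif22 and Kif23 (all windows, 6.95%). The TTTGAA match nearest to the start lay between 19 bases before it, in Kif11 and Kif15, and 7 bases after it, in Kif20b, for 6 genes. In Kif2c and Kif14 it lay 103 and 228 bases before the RefSeq start of the window, but these starts are 3867 and 1505 bases inside the gene models of GENCODE, whereas those of the other 7 genes are within 51 bases of the model's 5′ end. The windows of Kif2c and Kif14 therefore do not show the sequence at those ends. No match of one motif overlapped a match of the other. Such matches describe the letters and were not tested as binding sites.

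**Figure D1:**
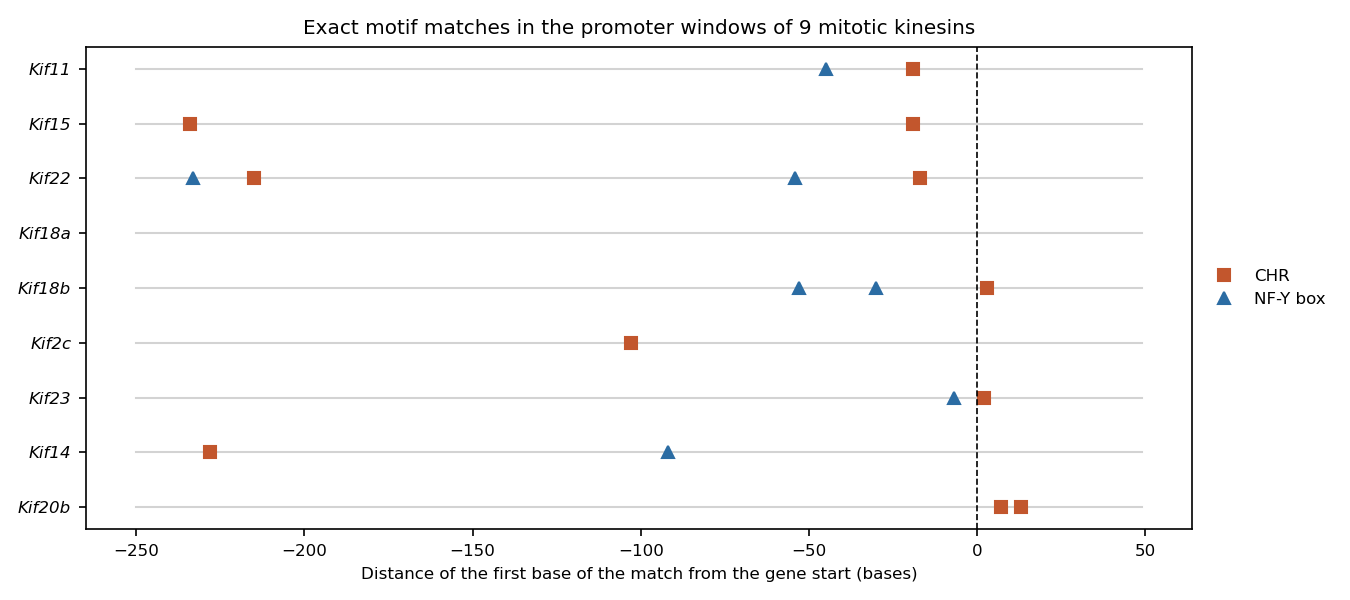
Positions of exact CHR (squares) and NF-Y box (triangles) matches on either strand, in bases from the RefSeq gene start (dashed line), in the promoter windows of 9 mitotic kinesin genes, 1 grey line each. In 6 genes a CHR match lies within 19 bases of the start, Kif18a has no match, and the starts of Kif2c and Kif14 lie inside their gene models.

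The libraries held 12552424 to 23741648 counts, and those of injured MRL tendon (18524170 to 23741648) were deeper than all others (at most 17832908). A count of 3, used here as the limit of detection, corresponded to 0.126 to 0.241 CPM. Tendon markers were present in all groups (Scx, 42.3 to 184 CPM, and Tnmd, 32.9 to 617 CPM), though Tnc was at 0 in 2 libraries. The 10 tendon marker genes summed to 38010 CPM in C57 uninjured replicate 4 and 61610 to 65670 CPM in the rest of its group. In MRL uninjured tendon they summed to 66700 to 97180 CPM. At 7 dpi the sums were 33650 (replicate 1) to 62430 CPM in C57 and 71700 to 115900 CPM in MRL, without overlap. In 2 uninjured libraries the transcripts went against the strain label. Between the injured groups, 49 genes had at least 20 counts in every MRL library and at most 3 in every C57 library, and 21 genes had the reverse pattern, a check made after the values were seen. The library labelled C57 uninjured replicate 4 (titled C57_uninj_6) had over 3 counts for 48 of the 49 MRL genes and 4 of the 21 C57 genes, whereas the other 3 C57 uninjured libraries had 1 to 5 and 18 to 20. The library labelled MRL uninjured replicate 4 (titled MRL_uninj_6) had 3 of the 49 MRL genes and 16 of the 21 C57 genes, against 48 to 49 and 2 to 7 in the other 3. Both were kept in the groups their labels give, and values without them are given for the kinesins and, for other gene lists, for the counts of calls. Single genes of those lists, apart from Mki67 and Top2a, are given with all libraries. The library labelled C57 uninjured replicate 4 also stood apart in tissue content, since 12 epidermal marker genes summed to 82970 CPM there and to 27.3 to 750.5 CPM in the other 15 libraries. The 12 muscle marker genes summed to 72740 CPM in C57 7 dpi replicate 1, 2171 CPM in replicate 2 and 6.17 to 19.98 CPM elsewhere. All 6 endothelial markers were at 0 in MRL uninjured replicate 1 and 1 of them was detected in MRL 7 dpi replicate 1, while in the other libraries they summed to 7.28 to 146 CPM.

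Uninjured tendon held little transcript of the kinesins, with 1 exception. Summed over the 10 genes, the C57 uninjured libraries held 10.4, 15.3, 13.0 and 104 CPM (replicates 1 to 4), and the MRL uninjured libraries 17.8, 9.01, 6.86 and 17.0 CPM. The value of 104 CPM belonged to the library labelled C57 uninjured replicate 4, which was the highest of its group for 9 of the 10 genes. At 7 dpi the sum was 89.7, 148, 200 and 35.1 CPM in C57 and 310, 212, 90.7 and 228 CPM in MRL. All MRL 7 dpi sums were above all MRL uninjured sums, whereas C57 7 dpi replicates 1 and 4 were below the library labelled C57 uninjured replicate 4. Within the injured groups the order of the libraries was shared by most genes: C57 replicate 3 was the highest for 8 of 10 and replicate 4 the lowest for 8, and MRL replicate 1 was the highest for 8 and replicate 3 the lowest for all 10. In whole tissue, a change in the number of dividing cells and a change in transcript per cell cannot be told apart.

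**Figure D2:**
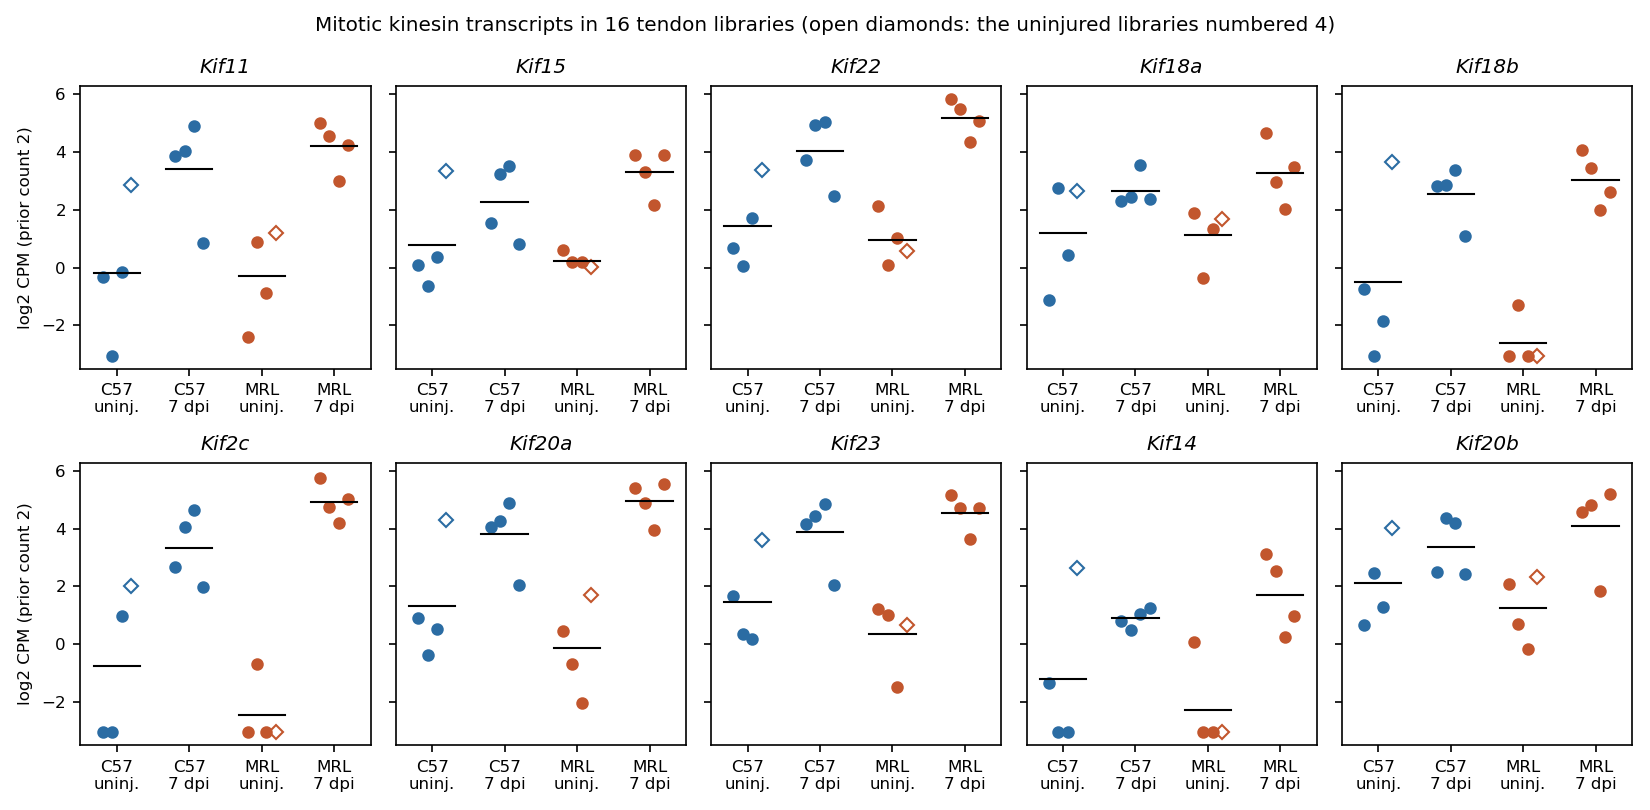
Level of each kinesin in every library, as log2 CPM with a prior count of 2, by group; each point is 1 library, bars are means of 4 and open diamonds mark the uninjured libraries numbered 4. The open C57 diamond is the highest C57 uninjured point in all panels except Kif18a and lies above all C57 7 dpi points for Kif14 and Kif18b, and the MRL 7 dpi points lie above all MRL uninjured points except in the Kif20b panel.

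In MRL tendon, 9 of the 10 kinesins rose at 7 dpi (edgeR quasi-likelihood test, Benjamini-Hochberg adjusted p under 0.05 and an absolute log2 fold change of at least 1). Over all 14274 genes tested, 5.25% were called higher and 7.41% were called in either direction. The median log2 fold change of the 10 was 4.17, against -0.03 for all genes. In 9 of 10 genes all injured libraries exceeded all uninjured libraries, a pattern found in 13.5% of genes. The library labelled C57 uninjured replicate 4, which held the transcripts of MRL genes, is not part of this comparison. Its kinesin sum of 104 CPM was above the lowest MRL 7 dpi sum, 90.7 CPM. So were its levels of Kif14, Kif15, Kif18a, Kif18b, Kif20a and Kif20b above the lowest MRL 7 dpi level of each gene. Those of Kif11, Kif22, Kif23 and Kif2c were not. Without the library labelled MRL uninjured replicate 4, 8 of 10 were called higher (4.68% of 14868 genes) and the median was 4.09. The 12 macrophage markers, all detected, summed to 3686 to 6672 CPM in these injured libraries and 1005 to 1638 CPM in the uninjured ones, and their part in the kinesin levels was not tested.

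Kif11 (ENSMUSG00000012443), the kinesin-5 that slides antiparallel microtubules apart to separate the spindle poles, was at 0.0663, 1.73, 0.418 and 2.17 CPM in MRL uninjured replicates 1 to 4 and at 31.9, 23.4, 7.89 and 18.7 CPM at 7 dpi. The groups did not overlap, and the log2 fold change was 4.25 (SE 0.805, edgeR adjusted p = 0.0096), or 4.82 (adjusted p = 0.0158) without the library labelled MRL uninjured replicate 4. Kif15, the kinesin-12 that can maintain spindle bipolarity beside Kif11, held 0.884 to 1.39 CPM in the uninjured and 4.41 to 14.7 CPM in the injured libraries, a log2 fold change of 3.34 (SE 0.501, edgeR adjusted p = 0.00386; 3.26 and 0.0113 without that library). On the log2 scale it had the narrowest spread of the 10 among MRL uninjured libraries (SD 0.25, n = 4).

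Among the kinesins that act on chromosomes and microtubule ends, Kif22 (ENSMUSG00000030677), a chromokinesin that pushes chromosome arms away from the poles, went from 4.31, 0.937, 1.91 and 1.37 CPM to 57.4, 44.5, 20.3 and 33.7 CPM. Its lowest injured library was above its highest uninjured library, and its log2 fold change was 4.19 (SE 0.510, edgeR adjusted p = 0.00169; 4.04 and 0.00658 without the uninjured library numbered 4). Kif2c (ENSMUSG00000028678), a kinesin-13 that depolymerises microtubules at centromeres and corrects wrong attachments, was counted in 1 of the 4 MRL uninjured libraries (0, 0.505, 0 and 0 CPM) and reached 54.4, 27.1, 18.2 and 32.5 CPM at 7 dpi. The fitted log2 fold change of 8.01 (SE 0.885, edgeR adjusted p = 0.00119; 7.67 and 0.00441 without the uninjured library numbered 4) was the largest of the 10. It rests on 7 uninjured counts, all in replicate 2. Leaving out any 1 library gave 7.54 to 12.27 and kept the call, and the upper value, without uninjured replicate 2, is a fit against 3 libraries at 0.

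Kif18b, a kinesin-8 that limits astral microtubule length, showed the same pattern, with 0, 0.288, 0 and 0 CPM in the uninjured and 16.9, 10.9, 3.88 and 5.96 CPM in the injured MRL libraries. Its log2 fold change was 6.94 (SE 1.10, edgeR adjusted p = 0.00466; 6.61 and 0.0132 without the uninjured library numbered 4), on 4 uninjured counts, all in replicate 2. With 1 library left out it ranged from 6.47 to 10.46, again highest without replicate 2, where the remaining uninjured libraries were at 0. Kif18a, the kinesin-8 that damps chromosome movement at the metaphase plate and the one without a motif match above, held 3.58, 0.649, 2.39 and 3.05 CPM and then 25.1, 7.71, 3.92 and 11.02 CPM. Its change was the smallest of the 10, 2.31 (SE 0.662, edgeR adjusted p = 0.0491), and was called in 1 of the 8 fits that left out a library, with a value of 2.45 (edgeR adjusted p = 0.0838) without the library labelled MRL uninjured replicate 4.

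Of the kinesins of the spindle midzone and cytokinesis, Kif23 (ENSMUSG00000032254), which forms centralspindlin with Racgap1, held 2.19, 1.88, 0.239 and 1.45 CPM before and 35.6, 25.9, 12.3 and 26.3 CPM after injury. Its log2 fold change was 4.13 (SE 0.591, edgeR adjusted p = 0.0031; 4.14 and 0.0111 without the uninjured library numbered 4). Kif20a, which carries the chromosomal passenger complex to the midzone, held 1.26, 0.505, 0.119 and 3.13 CPM and then 42.0, 29.4, 15.4 and 46.6 CPM. Its groups were apart in every library, with a log2 fold change of 4.77 (SE 0.754, edgeR adjusted p = 0.00459; 5.74 and 0.00441 without that library).

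Kif20b, which acts late in cytokinesis, rose by 3.04 on the log2 scale (SE 0.742, edgeR adjusted p = 0.0275; 3.44 and 0.0401 without the uninjured library numbered 4), but was the gene whose MRL groups overlapped. Its injured replicate 3 was at 3.44 CPM, below the 4.11 and 4.90 CPM of 2 uninjured libraries, and it was called in 2 of 8 fits that left out a library. Kif14, which recruits citron kinase to the midbody, was the member not called, at 0.928, 0, 0 and 0 CPM in uninjured and 8.61, 5.67, 1.06 and 1.84 CPM in injured MRL tendon. Its log2 fold change was 4.16 (SE 1.43, edgeR adjusted p = 0.0891; 3.79 and 0.154 without the uninjured library numbered 4), and 14 uninjured counts, all in replicate 1, stood against 387 injured counts. It was called in 1 of 8 fits that left out a library, the one without uninjured replicate 1 (fitted value 9.32), where the remaining uninjured libraries were at 0. DESeq2 called it, so that 10 of 10 kinesins were higher with that tool (6.86% of 16522 genes).

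In C57 tendon the answer depended on the library labelled C57 uninjured replicate 4. With all 8 libraries, 0 of 10 kinesins were called (edgeR, 1.07% of 14424 genes called, 0.908% higher), and 1 of 10, Kif22, had an unadjusted p under 0.05. DESeq2 called 0 of the 9 it tested (5.50% of 16570 genes called), but gave Kif11, Kif22, Kif23 and Kif2c an unadjusted p under 0.05. The log2 fold changes ran from 0.07 (Kif14) to 3.07 (Kif2c), with a median of 1.21 and edgeR adjusted p from 0.253 to 0.989. Without that library 5 of 10 rose (3.50% of 14983 genes called higher), 9 of 10 had an unadjusted p under 0.05, and the median log2 fold change was 3.60. DESeq2 without it called 8 of 10 (6.53% of 17112 genes), an alternative chosen after seeing the data. Leaving out any 1 of the other 7 libraries gave 0 of 10 calls, in fits that called 0.0667 to 0.620% of all genes. With all libraries no kinesin had groups that did not overlap (7.42% of genes), and without that library 8 of 10 did (11.6% of genes), all but Kif18a and Kif20b.

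Kif22 in C57 tendon was at 1.48, 0.907, 3.16 and 10.3 CPM uninjured and 13.1, 30.6, 32.9 and 5.39 CPM at 7 dpi. The groups overlapped because injured replicate 4 was below uninjured replicate 4. The log2 fold change of 2.29 (SE 0.851, edgeR adjusted p = 0.253) became 3.43 (SE 0.722, adjusted p = 0.0272) without the library labelled C57 uninjured replicate 4.

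Kif11 was at 0.672, 0, 0.771 and 7.09 CPM uninjured and 14.5, 16.4, 29.9 and 1.70 CPM injured. Its log2 fold change was 2.79 (SE 1.33, edgeR adjusted p = 0.359), and 4.99 (SE 1.20, adjusted p = 0.0476) without that library. The other genes called without it were the cytokinesis kinesins Kif20a (3.77, edgeR adjusted p = 0.0174) and Kif23 (3.35, adjusted p = 0.0282) and the kinesin-8 Kif18b (4.91, adjusted p = 0.0272).

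Kif18b moved most with this library among these 5. Its C57 uninjured values were 0.470, 0, 0.154 and 12.6 CPM, and the last exceeded all C57 7 dpi values (6.96, 7.15, 10.3 and 1.99 CPM). Kif14 was at 0.269, 0, 0 and 6.13 CPM uninjured and 1.62, 1.29, 1.95 and 2.27 CPM injured. Its log2 fold change of 0.07 (SE 1.52, edgeR adjusted p = 0.989) became 4.14 (SE 1.23, adjusted p = 0.0872).

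Kif2c, with 0, 0, 1.85 and 3.96 CPM uninjured and 6.30, 16.6, 25.0 and 3.83 CPM injured, was not called with all libraries (edgeR adjusted p = 0.343) or without uninjured replicate 4 (log2 fold change 4.37, SE 1.48, adjusted p = 0.138). Kif15, at 0.518 to 9.96 CPM uninjured and 1.63 to 11.4 CPM injured, and Kif20b, at 1.48 to 16.2 and 5.32 to 20.5 CPM, were not called in either fit. Kif18a had the smallest value without that library, 1.24 (95% interval -0.70 to 3.18). Its uninjured replicate 2, with 6.67 CPM, was above 3 of the 4 injured libraries (4.80, 5.36, 11.5 and 5.04 CPM).

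The epidermal markers and the strain markers were both out of place in the library labelled C57 uninjured replicate 4, and their part in its kinesin levels was not tested. The muscle markers of C57 7 dpi replicate 1 went with a kinesin sum of 89.7 CPM, in a group that ran from 35.1 to 200 CPM. Macrophage markers in C57 tendon summed to 803.5 to 1777 CPM uninjured and 4745 to 8631 CPM at 7 dpi. The 6 endothelial markers summed to 19.2 to 79.0 CPM uninjured and 98.7 to 146 CPM at 7 dpi in C57, with no overlap, whereas in MRL they overlapped (0 to 61.7 and 0.0840 to 26.7 CPM). The 8 T cell markers were low but also did not overlap, at 0 to 1.56 and 4.47 to 10.4 CPM in C57 and 0.199 to 2.39 and 4.96 to 8.53 CPM in MRL. C57 7 dpi replicate 4, the library lowest for 8 of 10 kinesins, held 7353 CPM of macrophage markers, inside the range of its group and above all 4 MRL 7 dpi libraries. The part of muscle, macrophages, endothelium and T cells in the kinesin levels was not tested.

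**Figure D3:**
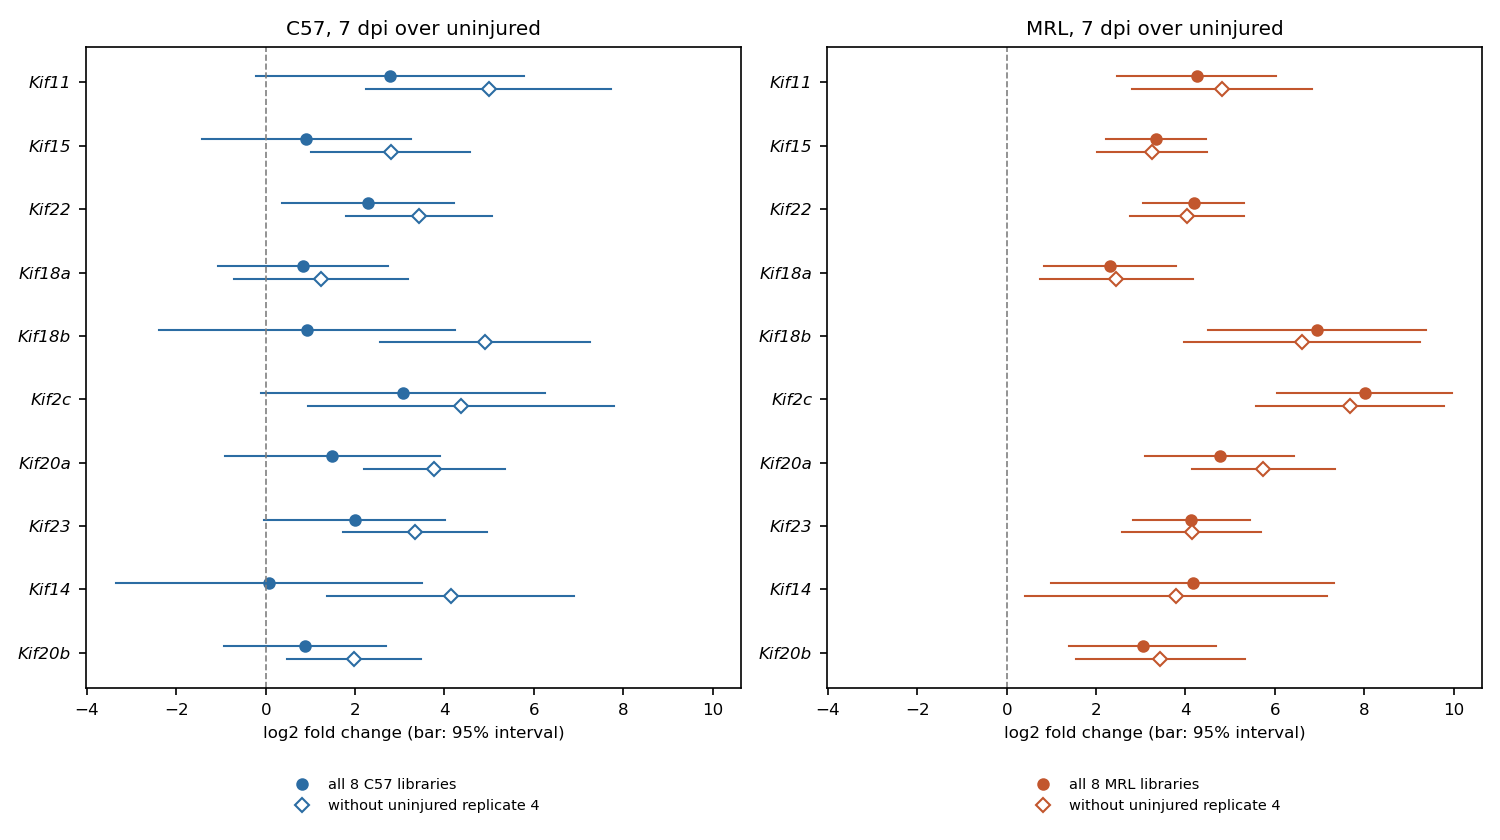
Log2 fold change from uninjured to 7 dpi in C57 (left) and MRL (right) tendon for each kinesin, with 95% intervals from edgeR; filled circles use all 8 libraries of the strain and open diamonds leave out its uninjured replicate 4. Without that library the C57 median goes from 1.21 to 3.60, and the MRL median from 4.17 to 4.09.

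Injured tendons of the strains were then compared directly, a comparison that uses neither of the uninjured libraries in doubt. None of the 10 kinesins differed past the threshold (edgeR, 3.43% of 14626 genes called; DESeq2 also 0 of 10, with 8.48% of 17552 genes called), and 1 of 10 had an unadjusted p under 0.05 by either tool. All 10 log2 fold changes of MRL over C57 were positive, from 0.36 (Kif11) to 1.33 (Kif2c), with a median of 0.84, against -0.06 for all genes. These 10 values come from the same libraries and are not independent of each other. In no gene were all MRL libraries above all C57 libraries (8.27% of genes).

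Kif2c had the largest difference between injured strains, 12.9 ± 9.74 CPM in C57 and 33.0 ± 15.4 CPM in MRL (SD, n = 4 each). Its log2 difference was 1.33 (95% interval 0.11 to 2.55, edgeR adjusted p = 0.201), and 3 of 4 MRL libraries were above the highest C57 library. Kif14 differed by 1.23 (interval -0.30 to 2.77) and Kif20a by 0.91 (interval -0.25 to 2.07). At the other end, Kif11 and Kif23 differed by 0.36 (interval -1.12 to 1.84) and 0.43 (interval -0.71 to 1.57). Apart from that of Kif2c, the intervals of all 10 hold both no difference and an MRL level more than 1 log2 unit above that of C57.

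Whether the injury response differed between strains was tested with the interaction of strain and injury. No kinesin passed the threshold, and 0 of 15947 genes did (edgeR, 0% called, smallest adjusted p = 0.293, 1939 genes at an unadjusted p under 0.05; DESeq2 called 198 genes, 1.15%, and 0 of 10 kinesins). With all libraries the 10 interaction estimates were positive, 1.39 to 5.95 with a median of 2.22, and 3 of 10 had an unadjusted p under 0.05. These were Kif18b (5.95, interval 1.55 to 10.3), Kif2c (4.86, interval 0.98 to 8.74) and Kif20a (3.20, interval 0.19 to 6.20). Without both uninjured libraries numbered 4 the median was 0.94, none of 10 had such a p, and the estimates ran from -0.43 (Kif14) to 3.21 (Kif2c, interval -0.73 to 7.14). Kif11 turned from 1.39 to -0.23 and Kif14 from 4.03 to -0.43 in that fit. The calls in MRL and the fewer calls in C57 are therefore not shown to be a difference between strains.

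**Figure D4:**
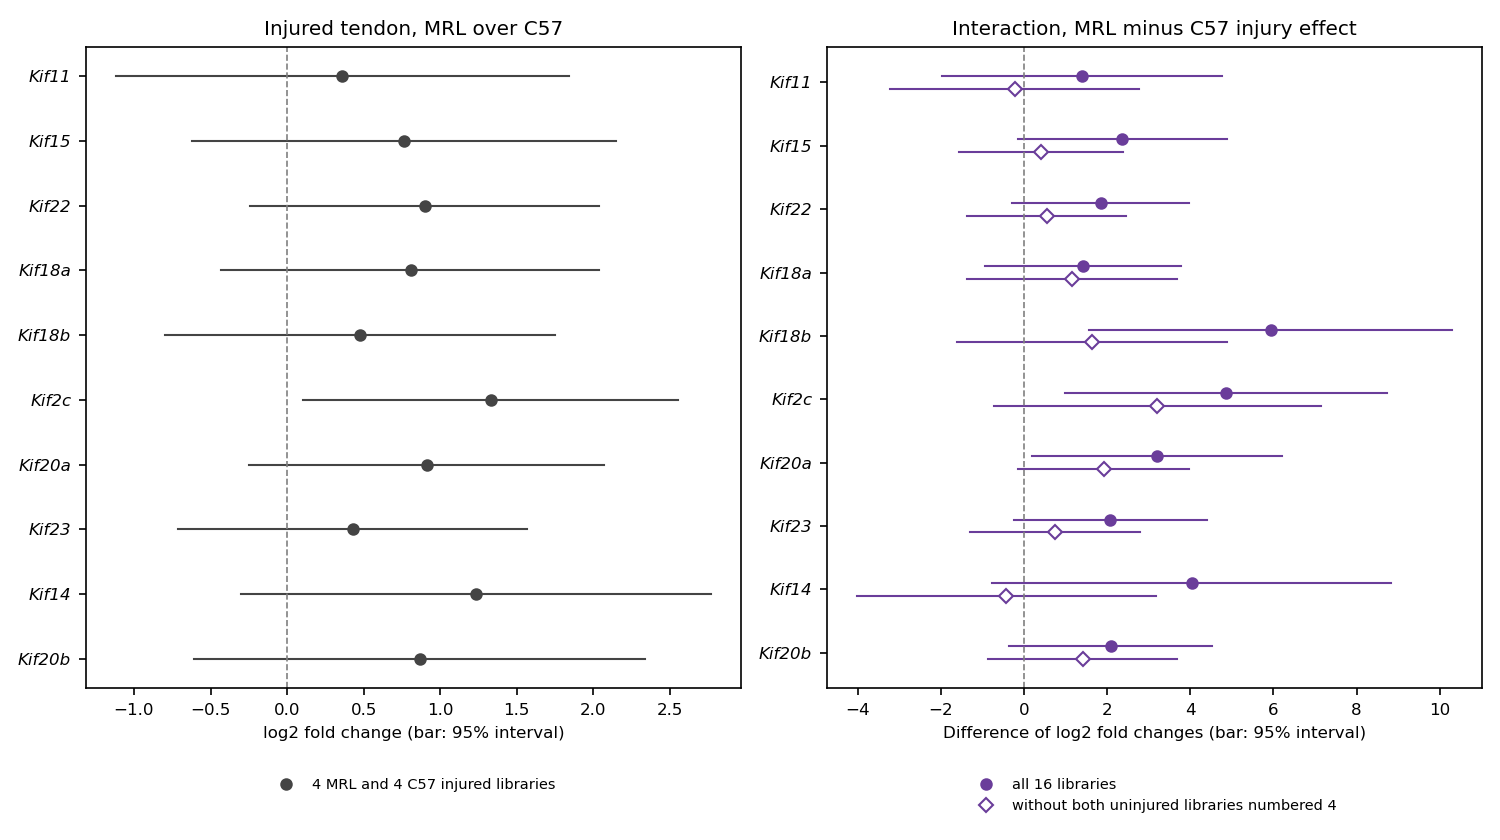
Left, log2 fold change of MRL over C57 in injured tendon for each kinesin (4 libraries a strain); right, the difference between the injury effects of MRL and C57 with all 16 libraries (circles) and without both uninjured libraries numbered 4 (diamonds); bars are 95% intervals from edgeR. In the left panel all 10 estimates are above 0 and the Kif2c interval, 0.11 to 2.55, excludes 0; in the right panel 3 intervals with all libraries exclude 0, and none without the libraries numbered 4.

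In uninjured tendon 7 of the 10 kinesins had enough counts to be tested between strains, all but Kif14, Kif18b and Kif2c. None of the 7 was called, and 0 of 14055 genes were (edgeR, 0% called, 1106 at an unadjusted p under 0.05; DESeq2 called 104 genes, 0.647%, and 0 of the 6 kinesins it tested). Those 6 held Kif2c but lacked Kif15 and Kif20a, to which DESeq2 gave no p, so the tools did not test the same genes. In the edgeR fit the log2 fold changes of MRL over C57 ran from -2.29 (Kif20a) to -0.62 (Kif18a). Without both libraries numbered 4, 497 genes were called (3.48% of 14274) and still 0 of 7 kinesins, with values from -0.98 (Kif20a) to 0.59 (Kif11). With 3 libraries left in each strain, Kif20a held 1.24 ± 0.553 CPM in C57 and 0.628 ± 0.580 CPM in MRL (SD, n = 3 each), and Kif22 held 1.85 ± 1.17 and 2.39 ± 1.74 CPM.

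The kinesins were also ordered by CPM per kilobase of the longest protein-coding transcript, a scale on which genes can be compared. Kif22 was the highest in every group, with 9.70 ± 6.35 CPM per kb in C57 and 18.4 ± 7.47 in MRL at 7 dpi (SD, n = 4 each), and above the next gene in all 4 libraries of both. Without the uninjured libraries numbered 4 it had the highest uninjured mean too (0.874 ± 0.555 in C57 and 1.13 ± 0.820 CPM per kb in MRL, SD, n = 3 each), though Kif18a was within that spread (0.816 and 0.655). Kif14 was the lowest at 7 dpi, 0.199 ± 0.0470 in C57 and 0.480 ± 0.393 CPM per kb in MRL, below Kif15 in all 8 libraries. In MRL 7 dpi the order after Kif22 was Kif2c, Kif20a, Kif23, Kif11, Kif20b, Kif18a, Kif18b, Kif15 and Kif14. Kif11 and Kif20b, Kif20b and Kif18a, and Kif18a and Kif18b each exchanged places in 2 of 4 libraries, so neighbours in the middle of this order did not differ beyond their spread. In C57 7 dpi Kif23 came second (5.32 ± 3.10 CPM per kb) and the mean of Kif2c after that of Kif20a (4.55 ± 3.43 against 4.70 ± 2.85). Kif20a was above Kif2c in only 1 of 4 of these libraries, so the order of these means is not a difference from MRL.

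The make-up of the kinesin transcripts is given as the share of each gene in the counts of all 10. Kif2c took 7.02, 11.2, 12.5 and 10.9% in the C57 7 dpi libraries and 17.5, 12.8, 20 and 14.2% in the MRL 7 dpi libraries. The 4 MRL shares were above the 4 C57 shares, but the nearest of them, 12.8% in MRL replicate 2 (exact 95% binomial interval 11.8 to 13.8%, counting error only) and 12.5% in C57 replicate 3 (11.4 to 13.7%), had overlapping intervals, and the difference was not tested. Kif11 showed no such order, with 4.85 to 16.2% in C57 and 8.20 to 11% in MRL. In the library labelled C57 uninjured replicate 4, the shares of 6 of the 10 kinesins lay inside the range of the 8 injured libraries (Kif11, Kif14, Kif18a, Kif20a, Kif20b and Kif23). Its shares of Kif18b (12.1%, interval 10.5 to 13.8%, against 2.61 to 7.76%) and Kif15 (9.57% against 3.08 to 6.42%) were above that range. Those of Kif2c (3.8%, interval 2.93 to 4.85%, against 7.02 to 20%) and Kif22 (9.94% against 14.6 to 22.4%) were below it, and these differences were not tested. The other uninjured libraries of both strains held only 115 to 269 kinesin counts each. Their shares ran from 3.39 to 14.8% for Kif15, 0 to 14.3% for Kif2c and 5.93 to 27.8% for Kif22, around the values of this library. For Kif18b they ran from 0 to 4.52%, below its 12.1%.

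**Figure D5:**
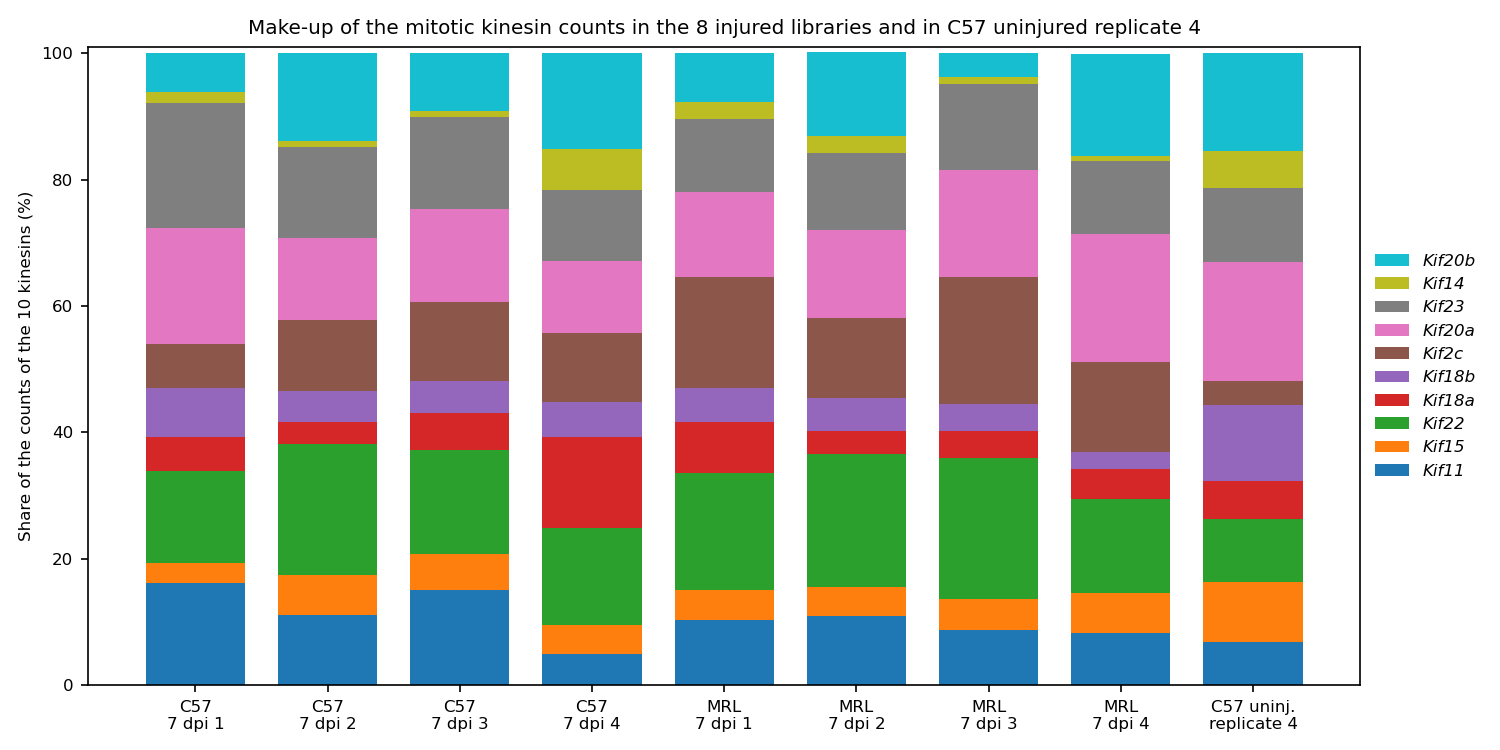
Share of each gene in the counts of the 10 kinesins, in percent, for the 8 libraries at 7 dpi and the library labelled C57 uninjured replicate 4 (1 bar a library). Kif2c takes 7.02 to 12.5% in the C57 and 12.8 to 20% in the MRL 7 dpi bars and 3.8% in the last bar, where Kif18b takes 12.1% and 6 of the 10 shares lie inside the range of the 7 dpi bars.

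Other genes of the mitotic machinery were read from a list of 21 partners and regulators of these motors, of which 20 were tested. The list also holds the kinesins Kif4, Kifc1 and Cenpe. In MRL tendon 19 of 20 rose at 7 dpi, with a median log2 fold change of 5.19 (edgeR, 5.25% of all genes called higher), and 19 of 20 without the library labelled MRL uninjured replicate 4 (4.68%). The smallest p-values belonged to Cdk1, the kinase that drives entry into mitosis (7.29, SE 0.604, edgeR adjusted p = 0.000785), Tpx2, a spindle assembly factor (5.25, adjusted p = 0.000824), Prc1, which bundles midzone microtubules and binds several of these kinesins (5.46, adjusted p = 0.000876), and Birc5, the survivin subunit of the chromosomal passenger complex (5.85, adjusted p = 0.000876). Kifc1, a minus-end kinesin that focuses spindle poles, was the gene not called (1.81, SE 1.24, edgeR adjusted p = 0.375). Its MRL levels were 0.483 ± 0.558 CPM uninjured and 1.70 ± 1.12 CPM injured (SD, n = 4 each).

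In C57 tendon 0 of the 20 partners were called with all libraries (edgeR, 4 of 20 at an unadjusted p under 0.05; DESeq2 called 2 of 19), against 1.07% of all genes called by edgeR and 5.50% by DESeq2. Without the library labelled C57 uninjured replicate 4, 9 of 20 were called higher (3.50% of all genes). Prc1 was at 46.6 CPM in its highest C57 uninjured library and 8.38 to 68.7 CPM in the injured ones. Mki67, the proliferation marker Ki-67, had a log2 fold change of 5.68 in MRL (SE 0.598, edgeR adjusted p = 0.00106; 5.77 without its uninjured replicate 4) and of 1.22 in C57 (SE 1.01, adjusted p = 0.607), and 3.48 in C57 without that library (SE 0.490, adjusted p = 0.00657). Top2a, the topoisomerase that untangles chromosomes before segregation, had 5.35 in MRL (edgeR adjusted p = 0.00236; 4.97 without its uninjured replicate 4) and 2.07 in C57 (adjusted p = 0.573), and 6.12 in C57 without it (adjusted p = 0.0226).

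Kinesins outside the 10 members and the partner list were counted as well. Of 34 other kinesin and kinesin light chain genes listed, 26 were tested in each strain, and 0 were called after injury in MRL (4 of 26 at an unadjusted p under 0.05; DESeq2 called 3 of 28, all lower) or in C57 (2 of 26; DESeq2 0 of 26). For all genes edgeR called 7.41% in MRL and 1.07% in C57, and DESeq2 called 4.14% lower in MRL. Without the uninjured library numbered 4 of each strain, edgeR called 6.11% of all genes in MRL and 5.01% in C57. Of these other kinesins it called 0 of 26 in MRL and 0 of 27 in C57 (4 and 1 at an unadjusted p under 0.05). Their median log2 fold change was -0.29 in MRL and -0.17 in C57. Kif5b, a widely expressed heavy chain of kinesin-1, held 188 ± 26.5 CPM in uninjured and 163 ± 10.2 CPM in injured MRL tendon (SD, n = 4 each), a log2 fold change of -0.20 (interval -0.53 to 0.12, edgeR adjusted p = 0.404). Klc1, a light chain that links kinesin-1 to cargo, Kif1b, a transporter of organelles, and Kifap3, the kinesin-2 adaptor, lay at -0.32, -0.30 and -0.10 (edgeR adjusted p from 0.252 to 0.825). Kif2a, the kinesin-13 relative of Kif2c, had the smallest p of this list, with 14.8 ± 3.19 and 28.1 ± 5.06 CPM (SD, n = 4 each). Its log2 fold change of 0.93 (SE 0.236, edgeR adjusted p = 0.0317) passed the p but not the fold threshold. Kifc2 (-2.75), Kif5c (-2.04) and Kif16b (-0.70) followed, with edgeR adjusted p of 0.0951, 0.124 and 0.143.

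The promoter windows of these lists were searched for the same motifs, as a description. TTTGAA was found in 15 of 22 partner promoter windows (68.2%), in 3 of 29 windows of the other kinesins (10.3%) and in 8 of 9 windows of the mitotic kinesins, against 17.9% of all windows. CCAAT was found in 72.7%, 41.4% and 55.6% of the same windows, against 37.4% of all.

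Across the 16 libraries the kinesins followed each other to different degrees. Pearson's r of a gene's log2 CPM with the mean of the other 9 ran from 0.706 (Kif18a) and 0.852 (Kif20b) to 0.957 (Kif23) and 0.960 (Kif20a). Without both uninjured libraries numbered 4 these were 0.709, 0.862, 0.955 and 0.975 over 14 libraries. The points share the injury groups, and r is given as a description. Among 15937 other genes, those most like the mean kinesin profile were Stmn1 (r = 0.974), which sequesters tubulin, Cdca3 (0.966), a trigger of mitotic entry, and Prc1 (0.965). Pif1 (0.964), a DNA helicase, E2f8 (0.964), a repressor of the cell cycle, Birc5 (0.963), Gsg2 (0.962), the haspin kinase of histone H3, and Depdc1a (0.960) came next. Without both libraries numbered 4 the r of these 8 genes ran from 0.959 to 0.978.

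Some counts could hold reads of neighbours, since whether strand was used in counting is not given in the sources used here. Kif18a overlaps Mettl15, Kif20a overlaps Cdc23, Kif22 overlaps Gm31749 and Kif18b overlaps Gm26668 on the opposite strand, and Kif11 and Kif14 overlap processed pseudogenes. Kif23 and Kif2c overlap no annotated gene.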

How the data were processed

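Per the labels and methods, reads from 16 single-tendon libraries were trimmed with Trimmomatic 0.36, aligned to GRCm38.p5 with STAR 2.5.2b and counted with featureCounts of Subread 1.5.0p3, and the authors tested them with DESeq2 1.14.1. The labels and the published methods name different library kits. The deposited counts are unnormalized whole-number counts per gene symbol. The 10 members and all lists were chosen with earlier results of these data known.

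Counts were scaled by TMM and tested with the edgeR 4.0.16 quasi-likelihood test (R 4.3.3), fitted on all genes passing filterByExpr, with Benjamini-Hochberg adjustment. Called means an adjusted p under 0.05 and an absolute log2 fold change of at least 1. Within-strain and within-state contrasts used their own 8 libraries, and the interaction all 16. The 95% intervals use the t quantile of each fit. DESeq2 1.42.0, other scalings and filters, a replicate block and leaving out each library were alternatives. Genes named from the lists were the 4 with the smallest p in MRL and the 4 with the highest mean count not called there. The p-values measure the spread between 4 tendons a group. Promoters and motifs came from RefSeq windows, and gene models from GENCODE (GRCm38). Scripts were tested on simulated counts. Figures were drawn with matplotlib 3.10.9.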

Additional observations from a re-analysis of the deposited data

Results flagged for a closer look

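In 9 of 40 groups of 4 libraries (10 genes in 4 groups), 1 library stood apart from the other 3 by Dixon's criterion. Chance alone meets it in about 1 in 20 groups of independent, normally distributed values. That rate does not apply to these 9 as a set, since CPM values need not be normally distributed and the genes share libraries. Also, 3 of the 9 come from groups whose other libraries were all at 0, where any count meets it. Of the 9, 5 were the highest C57 uninjured value and lay in the library labelled C57 uninjured replicate 4: Kif11 at 7.09 CPM, Kif14 at 6.13 CPM, Kif15 at 9.96 CPM, Kif18b at 12.6 CPM and Kif20a at 19.5 CPM. This library also went against its strain label and held 82970 CPM of epidermal markers, and the part of either in these values was not tested. In MRL uninjured tendon, Kif14 at 0.928 CPM in replicate 1, and Kif18b at 0.288 CPM and Kif2c at 0.505 CPM in replicate 2, were those 3, each the only library of its group with any count. Kif18a at 11.5 CPM in C57 7 dpi replicate 3 was above the other 3 libraries of its group, which held 4.80 to 5.36 CPM.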

How the results depend on the processing

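The count of kinesins called in C57 tendon was 0 under every planned setting except without the uninjured library numbered 4, and ranged from 0 to 5 when 1 library was left out; DESeq2 without that library, chosen after seeing the data, called 8. The planned C57 settings with 0 kinesin calls called 0.0667 to 5.50% of all genes. In MRL tendon 7 to 10 were called in all settings, in fits that called 2.70 to 7.73% of all genes higher. The partner list in C57 went from 0 calls to 2 with DESeq2, and from 0 to 9 when 1 library was left out. Among the other kinesins in MRL, 3 of 28 were called with DESeq2 (all genes, 11%), 1 of 32 with no filter on low counts (3.63%), and 0 to 2 when 1 library was left out (4.64 to 8.58%).

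Of 819 values of single genes under another setting, 768 kept their direction and side of the threshold, 16 gained a call, 17 lost one, all in the MRL injury comparison, and 18 turned sign, none of them there. With 1 library left out, the injury effect of Kif14 in C57 ranged from -0.34 to 4.14 (below 0 without uninjured replicates 1, 2 or 3 or injured replicate 4) and the strain difference of Kif11 in injured tendon from -0.017 to 0.86 (below 0 without C57 replicate 4). Between uninjured strains the ranges were -1.56 to 1.17 (Kif11), -1.95 to 0.29 (Kif15), -3.22 to 0.00998 (Kif20a) and -1.53 to 0.20 (Kif22), each above 0 without C57 replicate 4, and Kif11, Kif15 and Kif22 were at 0.59, 0.37 and 0.36 without both libraries numbered 4. The interaction ranged from -0.79 to 1.95 (Kif11) and from -0.042 to 9.04 (Kif14), below 0 without C57 uninjured replicate 4, and was -0.23 and -0.43 without both, or -0.24 and -0.51 with DESeq2. The cause was not tested.

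With a replicate block in the uninjured strain comparison, 0 of 7 kinesins were called, as were 0 of all 14055 genes, and Kif20a was at -1.70. Libraries of the same number did not deviate together (r from -0.26 to 0.02), so the numbers were not taken as pairs. Counts of 0 to 14 in uninjured MRL tendon limit the size of the fold changes of Kif2c, Kif18b and Kif14, and 4 libraries a group limit every interval.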
